A study of Homo sapiens with 2 samples.

Results

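Transcripts of 38 genes of sterol and fatty acid synthesis were compared between liver cancer cells that overexpressed miR-130b from a lentivirus and like cells that carried an empty vector. The genes fall into 3 groups: 5 genes of the SREBP machinery, 18 genes of the sterol arm and 15 genes of the fatty acid and triglyceride arm. Probe sets were assigned to a gene where the platform annotation gave that gene as their only symbol, and no measured value entered this choice. By this rule 36 of the 38 genes were covered, by 80 of the 41091 probe sets with 1 symbol, and the expression of ACSL3 and FDFT1 was not analysed here.

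The groups were PLC8024 CD133- cells transduced with miR-130b and PLC8024 CD133- cells transduced with an empty lentiviral vector, with 1 array each. PLC8024 is a human hepatocellular carcinoma (HCC) line, both cultures came from cells sorted by flow cytometry for lack of the surface marker CD133, and total RNA was measured. One label of the miR-130b sample speaks of transfection, whereas the treatment protocol names lentiviral transduction. With 1 array per group, no difference below carries a replicate error or a test, and every difference is one between these 2 arrays, given on the log2 scale as miR-130b minus empty vector.

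SREBP transcription factors are made as membrane proteins of the endoplasmic reticulum. When sterols are scarce, SCAP escorts them to the Golgi, where proteases free the active fragment, and when sterols are plentiful the INSIG proteins hold SCAP back. SREBP-2, the product of SREBF2, mainly drives the genes of cholesterol synthesis, and SREBP-1, the product of SREBF1, mainly drives those of fatty acid and triglyceride synthesis, in liver cells above all. SREBP sites in promoters usually act together with NF-Y, which binds CCAAT boxes, or with Sp1, which binds GC boxes.

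The overexpressed microRNA has the following mature sequence of its 3p arm in RefSeq (GRCh38.p14, chr22:21653354-21653375, plus strand). It is shown because the labels set the cultures apart by this microRNA, and its seed at bases 2 to 8 is in capitals.
hsa-miR-130b-3p: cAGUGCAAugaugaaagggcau
No transcript sequence was searched for sites of this seed.

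The promoter windows of 5 members are shown next, since the sterol genes shared a sequence feature there and these members encode the regulator or lie at the ends of the range of differences in their arms. They are SREBF2, EBP, MVD, HMGCS1 and GPAM, the first as the source of SREBP-2, the next 3 as the sterol-arm genes with the lowest differences and the last as the fatty acid gene with the highest. DGAT2, which had a difference of larger size than GPAM, has no window in the table. Each window is 300 bases long, with 250 bases before and 50 after an annotated transcript start in RefSeq (GRCh38.p14), written 5′ to 3′ on the strand of the gene. Capitals mark CCAAT or its reverse complement ATTGG and, in SREBF2 only among these 5 windows, TCACNCCAC, the core of a sterol regulatory element.
SREBF2, chr22:41832855-41833154, plus strand: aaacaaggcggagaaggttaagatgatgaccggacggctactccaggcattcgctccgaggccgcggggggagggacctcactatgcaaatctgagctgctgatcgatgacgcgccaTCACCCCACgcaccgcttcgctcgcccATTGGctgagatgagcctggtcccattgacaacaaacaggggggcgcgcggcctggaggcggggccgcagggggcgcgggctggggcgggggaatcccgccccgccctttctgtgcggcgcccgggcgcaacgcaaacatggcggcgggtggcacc
EBP, chrX:48521558-48521857, plus strand: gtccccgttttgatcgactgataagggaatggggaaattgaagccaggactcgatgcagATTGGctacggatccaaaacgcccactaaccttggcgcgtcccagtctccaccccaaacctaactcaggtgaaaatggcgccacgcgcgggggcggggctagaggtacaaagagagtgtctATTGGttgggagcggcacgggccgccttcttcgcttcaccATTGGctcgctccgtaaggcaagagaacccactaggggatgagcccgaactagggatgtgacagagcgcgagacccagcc
MVD, chr16:88663042-88663341, minus strand: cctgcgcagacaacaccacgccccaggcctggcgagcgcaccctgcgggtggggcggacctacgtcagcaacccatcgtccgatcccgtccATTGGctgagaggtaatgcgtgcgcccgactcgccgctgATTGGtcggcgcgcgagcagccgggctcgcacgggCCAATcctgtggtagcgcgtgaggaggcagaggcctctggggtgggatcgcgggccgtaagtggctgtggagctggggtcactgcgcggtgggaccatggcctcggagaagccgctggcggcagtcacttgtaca
HMGCS1, chr5:43313363-43313662, minus strand: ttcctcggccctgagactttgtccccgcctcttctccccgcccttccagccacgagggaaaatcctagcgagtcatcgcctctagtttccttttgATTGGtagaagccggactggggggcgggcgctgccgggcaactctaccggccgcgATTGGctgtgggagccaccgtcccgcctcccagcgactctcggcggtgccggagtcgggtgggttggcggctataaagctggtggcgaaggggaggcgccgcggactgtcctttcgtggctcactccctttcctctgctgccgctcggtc
GPAM, chr10:112183716-112184015, minus strand: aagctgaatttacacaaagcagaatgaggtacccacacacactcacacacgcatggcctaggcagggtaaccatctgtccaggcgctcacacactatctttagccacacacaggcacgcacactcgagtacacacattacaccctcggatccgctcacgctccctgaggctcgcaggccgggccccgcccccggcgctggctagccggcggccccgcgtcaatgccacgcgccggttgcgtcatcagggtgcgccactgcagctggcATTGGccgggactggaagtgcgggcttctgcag

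In SREBF2 the sterol regulatory element core TCACCCCAC began at position -133, counted back from the start, and a CCAAT box on the other strand followed at position -106. EBP had CCAAT boxes at positions -191, -70 and -30, MVD at -159, -120 and -85, and HMGCS1 at -155 and -100. HMGCS1 has 2 windows, and the one shown was chosen because it held more CCAAT boxes. The other HMGCS1 window had 0. The CCAAT box of GPAM began at base 18 after the start. Over both strands, CCAAT was found in 14 of the 15 sterol-arm genes with a window in the table, in 7 of 12 genes of the fatty acid and triglyceride arm (ACSL3 among them) and in 2 of 5 machinery genes, against 39.7% of all 27305 genes. Genes can have several windows, and by window the shares were 16 of 20 in the sterol arm and 9 of 24 in the fatty acid arm, against 34.6% of all 35116 windows. The GC box GGGCGG was present in 14 of 15 sterol-arm genes, 11 of 12 fatty acid genes and 5 of 5 machinery genes, against 48.3% of all genes. By window it was present in 18 of 20, 16 of 24 and 6 of 6, against 45.0% of all windows. The E-box CACGTG was present in 2 sterol-arm genes (LSS and SC5D), in 2 machinery genes (SCAP and INSIG1) and in 0 fatty acid genes, against 8.77% of all genes. TCACNCCAC was present in SREBF2 and in 1 window of ACSL1, against 1.39% of all genes. These are matches of letters in 1 window length, none of the 4 motifs contains another, and neighbouring matches can share bases.

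The arrays held the markers of the labelled cell type. All 17 hepatocyte and HCC markers with a probe set were at or above the expression floor in both arrays, and the log2 of their summed linear levels was 16.7 with miR-130b and 16.8 with empty vector. Single markers nevertheless differed: 5 of the 17 were lower by a log2 difference of at least 0.32, against 6.24% of all measured genes, namely TTR (-3.34), KRT8 (-1.05), ALB (-1.03), AFP (-0.57) and APOA1 (-0.51), while APOH was highest with 0.32. The 3 measured probe sets of ALB differed by -2.38 to -1.03. Those of APOA1, also 3, differed by -0.51 to 0.11, and 2 were lower. TTR, the thyroxine carrier transthyretin, stood at 5.92 with miR-130b and 9.26 with empty vector. The floor was 4.88, the median over both arrays of 54613 probe sets (controls left out), and it is not a detection call. Of markers of other cell types, 2 of 5 leukocyte, 4 of 9 stromal and endothelial and 2 of 5 adipocyte genes lay at or above the floor in both arrays. The rest of these lists, PTPRC, CD3E, CD14, ACTA2, COL3A1, LUM, VWF, KDR, ADIPOQ, LEP and FABP4, lay below it in both. Of those above it, the collagen gene COL1A2 stood at 4.90 with miR-130b and 7.98 with empty vector, 8.46-fold lower, and its other probe set differed by -3.25. The lysozyme gene LYZ stood at 9.46 with miR-130b and 9.77 with empty vector, with -1.72 in its other probe set. PECAM1 stood at 8.72 with miR-130b and 8.51 with empty vector, and its 4 measured probe sets differed by -0.24 to 0.21. COL1A1 stood at 7.12 with miR-130b and 7.20 with empty vector. Its 4 measured probe sets differed by -1.68 to 0.38, and 3 were lower. With miR-130b and with empty vector, ITGAM stood at 5.56 and 5.59 and DCN at 5.07 and 5.15. In the same order, CIDEC stood at 6.52 and 6.66, and PLIN1 at 5.70 in both. Of 3 steroidogenic markers, STAR and CYP11A1 lay below the floor in both arrays. The third, CYP17A1, stood at 5.15 with miR-130b and 4.75 with empty vector, so only its miR-130b value reached the floor. The log2 of the summed linear levels of the leukocyte, stromal and adipocyte lists stood at 9.67, 9.46 and 7.56 with miR-130b and at 9.95, 9.80 and 7.64 with empty vector, and the part of these markers in the members' values was not tested. PROM1, which encodes the sorted marker CD133, stood at 6.07 with miR-130b and at 9.19 with empty vector, so its transcript was above the floor in cells labelled CD133-. TP53INP1, a published target of miR-130b and so not independent of the study, stood at 7.84 with miR-130b and 9.02 with empty vector in its brightest probe set, and its other measured probe set differed by -0.07.

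Few genes of lipid synthesis differed by much between the arrays. In such bulk samples, fewer cells of a type and less RNA per cell cannot be told apart. Each gene is represented by its brightest probe set among those at or above the floor in at least 1 array, and all 36 covered genes had one. Only DGAT2 was lower with miR-130b by 1.5-fold or more, which is 1 of 36 members against 2.68% of 13260 measured genes, and 0 of 36 were at least 1.5-fold higher, against 0.294%. At 2-fold, 0 of 36 were lower, against 1.52% of all measured genes. Past a log2 difference of 0.32, a smaller size used for counting, 3 members were lower (DGAT2, EBP and MVD) and 1 was higher (GPAM), against 6.24% and 5.05% of all measured genes. These shares are close to those of all genes. Probe sets of 1 gene differed among themselves with a pooled SD of 0.20 on the log2 scale over 6047 genes, and 0.16 over the 22 members with at least 2 measured probe sets. It is a technical spread that holds no variation between cultures. The difference exceeded 0.20 in size in 7 of 36 members, or 19.4%, against 28% of all measured genes.

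The groups differed in where their small differences lay. In the sterol arm 14 of 17 measured genes had a difference below 0, in the fatty acid and triglyceride arm 6 of 14 and in the SREBP machinery 4 of 5, against 41.9% of all measured genes. After centring by loess or on the median of all genes, the fatty acid and triglyceride arm had 8 of 14 below 0, against 48.2% and 50% of all measured genes, while the counts of the sterol arm and the machinery were the same. The median difference was -0.10 in the sterol arm, 0.02 in the fatty acid and triglyceride arm (-0.011 after centring on the median of all genes and -0.0076 after loess centring) and -0.06 in the machinery, beside 0.03 over all measured genes. Over single probe sets, 26 of 33 measured sterol-arm probe sets, 12 of 30 of the fatty acid arm and 8 of 10 of the machinery were below 0, against 44.7% of 23352 measured probe sets. Most of the sterol-arm values are smaller than the spread between probe sets of a gene, and genes of a pathway are not independent, so these counts describe the 2 arrays and are no test.

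**Figure D1:**
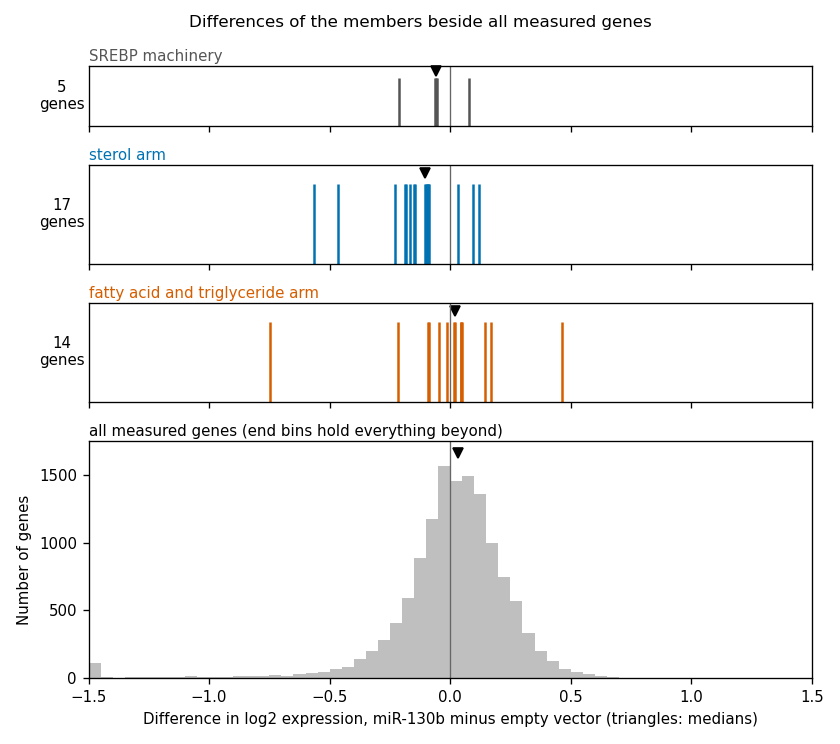
Differences in log2 expression, miR-130b minus empty vector (x axis), for the members of each group (vertical ticks, 1 per gene) above a histogram of all 13260 measured genes (y axis, number of genes, in bins of 0.05). Triangles mark medians: the sterol arm's, at -0.10, lies left of 0, while those of the fatty acid arm, at 0.02 as deposited and below 0 after centring, and of all genes, at 0.03, lie just right of it.

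RNA quality measures moved in the same comparison. The 3' over 5' control ratio was 2.41 with miR-130b and 1.95 with empty vector for ACTB, and 1.52 with miR-130b and 1.37 with empty vector for GAPDH. The 5' probe set of ACTB differed by -0.35 and that of GAPDH by -0.13, while their 3' probe sets differed by -0.05 and 0.02. The part of these 5' differences in the members' values was not tested.

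The regulators differed by at most 0.21 in size between the arrays by brightest probe set. SREBF1 stood at 6.85 with miR-130b and 7.06 with empty vector, a difference of -0.21, and its dimmer probe set differed by -0.15. SREBF2 stood at 8.14 with miR-130b and 8.20 with empty vector in its brightest probe set, a difference of -0.06. Its other probe sets did not have the same sign, with -0.24 and 0.20. SCAP, the escort protein, stood at 9.10 with miR-130b and 9.16 with empty vector. INSIG1, which retains SCAP and is itself a target of SREBPs, differed by 0.08 in the brightest of its probe sets, but by -0.07 and -0.09 in the others. INSIG2, its homologue, differed by -0.05. No machinery gene reached a difference of 0.32 in any of the 10 measured probe sets. Of all measured probe sets, 7.33% were lower and 5.17% higher by at least that size.

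All 7 measured genes from acetyl-CoA to farnesyl diphosphate were slightly lower with miR-130b, with differences from -0.46 to -0.09 and a median of -0.18. Of their 14 measured probe sets, 12 were below 0. Over all measured, 41.9% of genes and 44.7% of probe sets were below 0. ACAT2, the cytosolic thiolase that opens the pathway, stood at 10.5 with miR-130b and 10.7 with empty vector (-0.15). HMGCS1, which joins acetyl-CoA and acetoacetyl-CoA to HMG-CoA, stood at 9.69 with miR-130b and 9.91 with empty vector, a difference of -0.23. A dimmer HMGCS1 probe set stood at 7.75 with miR-130b and 8.51 with empty vector and was 1.69-fold lower, the lowest difference of any measured member probe set. The probe sets of HMGCS1 thus had the same sign, and their sizes lay further apart than the pooled SD of 0.20.

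Mevalonate kinase, MVK, differed by -0.09 in the brightest and by 0.02, -0.17 and -0.12 in the others of its measured probe sets. PMVK, which adds the next phosphate, stood at 8.44 with miR-130b and 8.62 with empty vector (-0.18). MVD, the decarboxylase that yields isopentenyl diphosphate, stood at 6.57 with miR-130b and 7.04 with empty vector, 1.38-fold lower, from 1 probe set. MVD had the largest difference of these 7 genes by brightest probe set. IDI1, the isomerase of isopentenyl diphosphate, differed by -0.19, and by -0.16, 0.01 and -0.07 in its other probe sets, of which the first 2 carry, like the brightest, a suffix for possible cross-hybridisation (_x_at). FDPS, which condenses these units to farnesyl diphosphate, stood at 11.0 with miR-130b and 11.2 with empty vector (-0.17).

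From squalene to cholesterol the differences were of both signs. The median was -0.10, and 6 of 9 measured genes were below 0, against 41.9% of all measured genes. SQLE, the epoxidase of squalene, stood at 10.44 with miR-130b and 10.41 with empty vector, a difference of 0.03, while its dimmer measured probe sets differed by -0.08 and -0.26. LSS, which closes the ring to lanosterol, was the highest of the sterol arm with 0.12, and its other probe sets differed by -0.01 and -0.03. Neither gene thus had a sign shared by all its probe sets.

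Most other steps on the way to cholesterol were within 0.11 of 0. The sterol reductase TM7SF2 differed by -0.10 and the methyl sterol oxidase MSMO1 by -0.09. NSDHL, a sterol dehydrogenase, differed by -0.10 and by 0.09 in its other probe set. HSD17B7, a sterol ketoreductase, differed by 0.09 in a single probe set with the suffix _x_at. SC5D, a sterol desaturase, differed by -0.10.

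EBP, the sterol isomerase, stood at 9.77 with miR-130b and 10.34 with empty vector in its brightest probe set. That is 1.48-fold lower, just short of 1.5-fold and the largest difference of the sterol arm by brightest probe set. Its other probe sets differed by -0.28 and -0.56, and the dimmest had exactly the same value in both arrays, 5.67. DHCR7, the reductase of the last step to cholesterol, differed by -0.15, at 9.98 with miR-130b and 10.13 with empty vector. Its other probe set was 1.44-fold lower, at 9.20 with miR-130b and 9.73 with empty vector. STARD4, a carrier that moves cholesterol between membranes, stood at 8.68 with miR-130b and 8.77 with empty vector (-0.09). EBP and DHCR7 were therefore the late-step genes with the lowest probe sets, and in both 1 probe set was well nearer to 0 than the lowest.

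**Figure D2:**
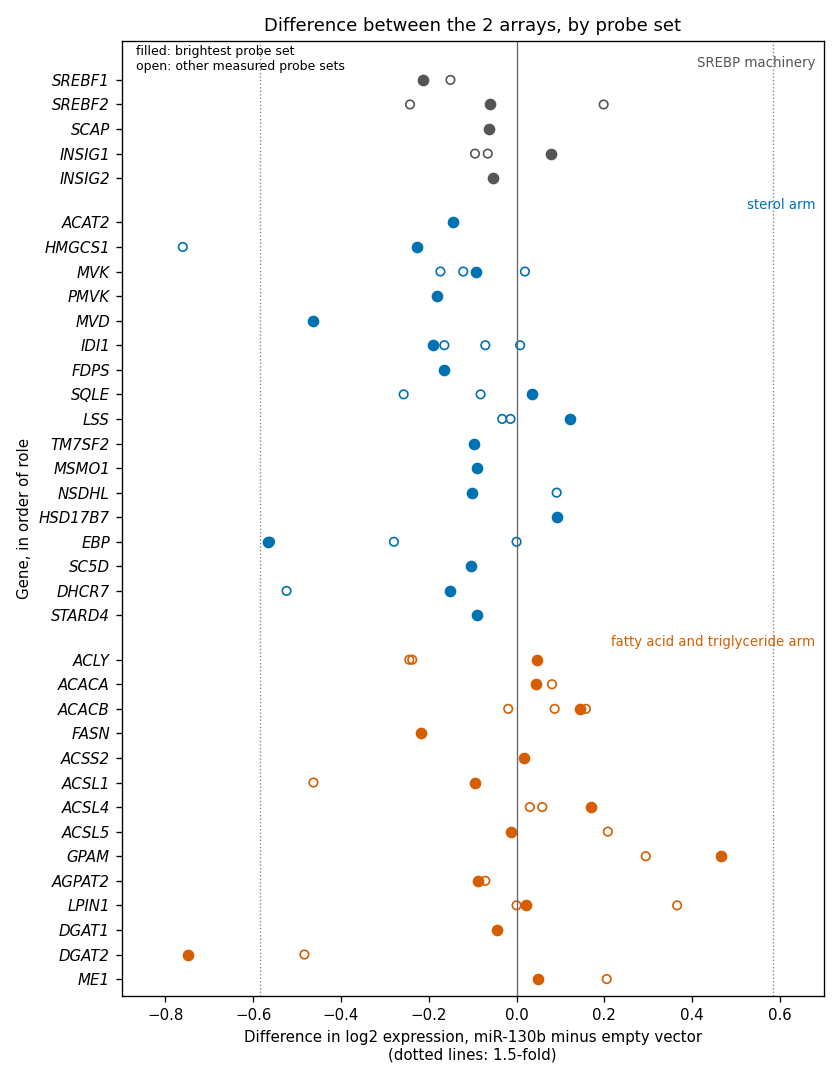
Difference in log2 expression between the arrays, miR-130b minus empty vector (x axis), for each measured probe set of the members (y axis, genes by role, coloured by group). Filled points are the brightest probe set of a gene and open points its other measured ones, and dotted lines mark 1.5-fold. The brighter DGAT2 and the dimmer HMGCS1 probe set are the only points beyond 1.5-fold, both lower, and most sterol-arm points lie left of 0.

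The count of lower sterol genes depended partly on the probe sets used. Of the 17 brightest probe sets of the sterol arm, 10 carry the suffix _s_at or _x_at, which marks probes shared between transcripts. Without such probe sets 10 genes remained, of which 7 were below 0 with a median of -0.09, and 0 were lower by 0.32 or more, since MVD has no other probe set and EBP is then represented by the one with -0.28. With the probe sets of each gene averaged, 15 of 17 were below 0 and 4 were lower by 0.32 or more. Over all measured genes, averaging gave 44.0% below 0 and 798 of 13260 lower by 0.32 or more. Without _x_at and _s_at probe sets these were 40.3% and 652 of 10175.

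Genes that make fatty acids were within 0.32 of 0 by brightest probe set. ACLY, which splits citrate to cytosolic acetyl-CoA, stood at 11.34 with miR-130b and 11.29 with empty vector, a difference of 0.05, whereas both its other probe sets differed by -0.24. The acetyl-CoA carboxylases, which make malonyl-CoA, differed by 0.05 for ACACA and by 0.14 for ACACB, with 0.08 in the other ACACA probe set and from -0.02 to 0.16 in the other measured ACACB ones. FASN, the fatty acid synthase, stood at 9.09 with miR-130b and 9.31 with empty vector (-0.22). It was the only one of these 6 genes below 0 by brightest probe set, against 41.9% of all measured genes. Of the 13 measured probe sets of the 6 genes, 4 were below 0, against 44.7% of all measured probe sets. ACSS2, which activates acetate, differed by 0.02, and by -0.01 after either centring. ME1, the malic enzyme that supplies cytosolic NADPH, differed by 0.05 and by 0.21 in its dimmer measured probe set.

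Acyl-CoA synthetases, which activate fatty acids for use, had no shared direction. ACSL1 differed by -0.09, at 6.86 with miR-130b and 6.95 with empty vector, and by -0.46 in its other probe set. ACSL4, which prefers arachidonate, differed by 0.17, 0.03 and 0.06 in its probe sets, all above 0. ACSL5 differed by -0.01 and by 0.21.

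The first and last steps of triglyceride synthesis held the differences of the arm that went furthest in each direction. GPAM, the mitochondrial acyltransferase that opens glycerolipid synthesis, stood at 8.22 with miR-130b and 7.75 with empty vector, 1.38-fold higher. Its dimmer probe set stood at 5.14 with miR-130b and 4.85 with empty vector and was 1.23-fold higher. This probe set counted as measured only through its miR-130b value, since its empty vector value lay below the floor of 4.88. DGAT2, one of the enzymes of the final acylation to triglyceride, stood at 6.66 with miR-130b and 7.40 with empty vector, 1.68-fold lower. Its other probe set stood at 6.49 with miR-130b and 6.97 with empty vector, 1.40-fold lower. Both genes had the same sign in all their measured probe sets, but for the dimmer GPAM one the floor favoured that sign. All probe sets of DGAT2 were lower by at least 0.32, which held for 2.38% of the 6047 genes with at least 2 measured probe sets, but both carry the suffix _s_at. DGAT1, the other enzyme of that step, differed by -0.05, at 8.12 with miR-130b and 8.17 with empty vector.

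The steps between them differed by less than 0.10 by brightest probe set. AGPAT2, the next acyltransferase after GPAM, differed by -0.09 and -0.07. LPIN1, the phosphatidate phosphatase that forms diacylglycerol, differed by 0.02 and 0.00 in its brighter probe sets and by 0.37 in its dimmest, at 5.44 with miR-130b and 5.08 with empty vector. The dimmest LPIN1 probe set and the brighter GPAM one were the only ones of 73 measured member probe sets higher by at least 0.32, against 5.17% of all measured probe sets, while 8 of the 73 were lower by at least 0.32, against 7.33%. Past 1.5-fold lower were 2 of the 73, the dimmer one of HMGCS1 and the brighter one of DGAT2, against 2.83% of all measured probe sets.

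**Figure D3:**
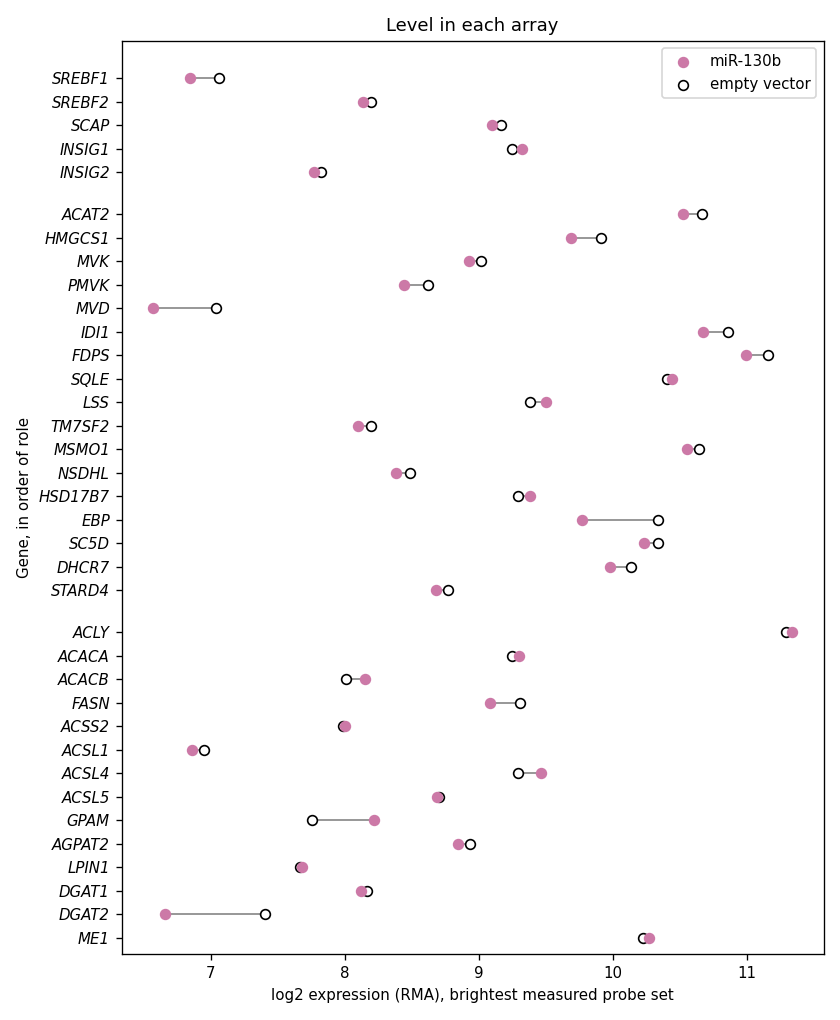
Level of each member with miR-130b (filled) and with empty vector (open) by its brightest measured probe set (x axis, log2 expression after RMA; y axis, genes by role). The points of most genes nearly coincide, and the widest gaps are those of DGAT2, EBP, GPAM and MVD.

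Agreement between probe sets was limited. Of the 22 members with at least 2 measured probe sets, 6 had all of them below 0, against 21.1% of all such genes, and 4 had all of them above 0, against 27.9% of all such genes. In the sterol arm all probe sets were below 0 in 2 of 8 such genes, HMGCS1 and DHCR7. The dimmest probe set was lower than the brightest in 11 of the 22 members, against 55.5% of all such genes. A further 7 member probe sets lay below the floor in both arrays and entered no count, 3 of ACACB and 1 each of SQLE, SC5D, FASN and ME1, with differences from -0.22 for SQLE to 0.20 for ACACB.

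In the lists around the sterol arm most values lay above 0. Of genes of SREBP processing and sterol-regulated degradation, 2 of 9 measured were below 0, against 41.9% of all measured genes, with a median of 0.21. They ranged from -0.23 for the extraction ATPase VCP to 0.30 for the ubiquitin ligase RNF145. The other probe set of VCP differed by -0.0025 and that of RNF145 by -0.14. In the list of isoprenoid branches, most of which draw on farnesyl diphosphate, 1 of 9 was below 0 (2 after loess and 3 after median centring). The median was 0.14, from -0.02 for the dolichol enzyme DHDDS (0.10 in its other probe set) to 0.36 for the ubiquinone enzyme COQ2. That list also holds LBR, a sterol reductase that acts after lanosterol as TM7SF2 does, with 0.22. In sterol handling, 2 of 14 were below 0 (4 after either centring), with a median of 0.07 (0.04 after either centring). The sterol hydroxylase CYP27A1 was the one gene of that list beyond 1.5-fold, at 6.02 with miR-130b and 6.72 with empty vector, 1.63-fold lower, and the cholesterol esterifying enzyme SOAT1 was highest with 0.30. No test of the difference between lists was made.

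Lists close to the fatty acid arm were mixed, set beside 41.9% of all measured genes below 0. Of 13 measured genes of fatty acid supply and regulation, 7 were below 0, with a median of -0.00088. They ranged from -0.38 for PRKAA1, a catalytic subunit of AMP-activated kinase, to 0.23 for the mitochondrial fatty acid synthase gene OXSM. All 4 measured PRKAA1 probe sets were below 0, from -0.64 to -0.33. Of 18 fatty acid oxidation genes, 7 were below 0, with a median of 0.05. By brightest probe set they ranged from -0.42 for the electron carrier ETFB to 0.33 for the medium-chain dehydrogenase ACADM. The 3 measured probe sets of CPT1A differed by 0.24 to 0.71, and the 3 of ACAA2 by -0.32 to -0.17. Of 9 NADPH supply genes, 4 were below 0, with a median of 0.06, from -0.19 for PGD to 0.20 for ME3. The other probe set of PGD differed by 0.07.

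The glycerolipid list, which includes GPAM as its highest gene, holds lipases and lipid droplet genes as well as enzymes of synthesis. It had 11 of 17 measured genes below 0, against 41.9% of all measured genes, with a median of -0.11. Of the enzymes of synthesis besides GPAM, GPAT3 (0.30), AGPAT5 (0.17), LPIN2 (0.07) and AGPAT4 (0.02) were above 0 by brightest probe set. AGPAT1 (-0.15), GPAT4 (-0.13) and MOGAT2 (-0.05) were below. The monoglyceride lipase MGLL was beyond 2-fold, at 5.52 with miR-130b and 7.34 with empty vector, 3.53-fold lower, with -0.79 in its other probe set. In all, 4 of the 17 were lower by at least 0.32, against 6.24% of all measured genes. The other three, named after their values were seen, were the lipid droplet coat gene PLIN2 with -0.40, PNPLA3 with -0.38 and the lipase gene LIPE with -0.32.

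**Figure D4:**
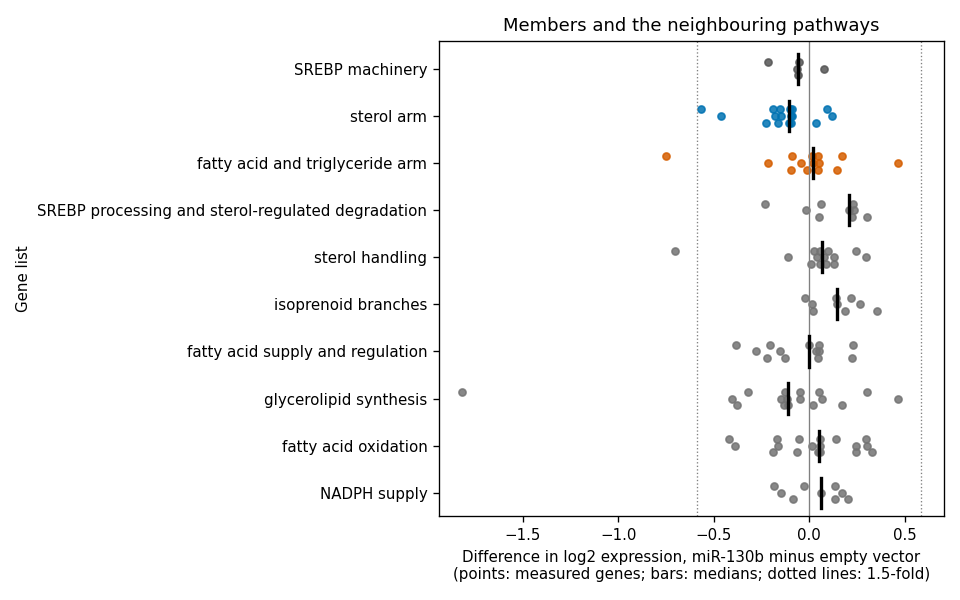
Difference in log2 expression, miR-130b minus empty vector (x axis), of each measured gene (points) in the 3 groups of members and the 7 lists of neighbouring pathways (y axis), with list medians as bars and 1.5-fold as dotted lines. The medians of the sterol arm (-0.10), the machinery (-0.06) and the glycerolipid list (-0.11) lie left of 0, that of fatty acid supply (-0.00088) lies at 0, and the others lie right of it, the fatty acid arm's (0.02) only before centring, and MGLL is the point furthest to the left.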

How the data were processed

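The authors deposited log2 expression values for 54675 probe sets on each of 2 arrays. Per the submitters' processing notes they were made with RMA; no version, settings or list of co-normalized arrays is given in the sources used here. RMA compresses the fold of dim probe sets. GEO's platform annotation gave 1 gene symbol to 41091 of the 54613 probe sets other than controls, several to 1801 and none to 11721. By Entrez identifier 41037 were matched to RefSeq, and 0 symbols changed. Differences were computed per probe set, and each gene was represented by its brightest one at or above the floor. The sizes used for counting, a log2 difference of 0.32 and folds of 1.5 and 2, are not tests. Only more arrays could improve the precision. All members were described. In related lists the lowest, the highest, any gene beyond 1.5-fold and some others were named. Members and lists were chosen with earlier results of these data known. The computation was tested on simulated data. As alternatives, the floor was dropped or raised to the 75th percentile (6.98), probe sets were averaged, those ending in _x_at or _s_at were left out, and differences were centred by loess (span 0.3) or by their median. A planned comparison of protein sequences was not run. Python 3.11.15, numpy 2.4.6, pandas 2.3.3, scipy 1.17.1, statsmodels 0.14.6 and matplotlib 3.10.9 were used.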

Additional observations from a re-analysis of the deposited data

How the results depend on the processing

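With 1 array per condition, no setting gives an error between cultures. Of 202 comparisons of a member's difference with its value under an alternative, 199 moved by less than the spread between probe sets (0.20 on the log2 scale) and 3 by more: HMGCS1 had -0.49 and EBP -0.35 with the mean of probe sets, and EBP had -0.28 without _x_at and _s_at probe sets. The median of all members was -0.12 both after centring on the median of all genes and after loess centring. Each of these centrings gave 2 members at least 1.5-fold lower, against 385 (median) and 370 (loess) of 13260 measured genes. The centrings turned the median of the fatty acid and triglyceride arm to -0.011 (median) and -0.0076 (loess), so that median has no settled sign. Without _x_at and _s_at probe sets, the count of members at least 1.5-fold lower was 0, and 0 were lower by at least 0.32 in the sterol arm, in the fatty acid and triglyceride arm and among all members. Of the 10175 genes then measured, 263 were at least 1.5-fold lower and 652 were lower by at least 0.32. The median of the sterol arm was then -0.090. The counts of members lost the genes covered only by such probe sets, among them MVD and DGAT2. With the mean of probe sets, 5 members in all and 4 of the sterol arm were lower by at least 0.32. The same held for 798 of 13260 measured genes. The median of the sterol arm stayed below 0 under each of the 6 alternatives. After either centring 14 of its 17 genes were below 0, whereas the genes below 0 in the fatty acid and triglyceride arm became 8 of 14. Of all measured genes, 48.2% (loess) and 50% (median) were then below 0. No paired analysis was possible because each group has 1 array. RMA background limits what dim probe sets can show.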
